A study of Mus musculus with 2 samples.

Results

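Integrins are cell-surface adhesion receptors, and the 10 subunit genes described here are Itgb1, Itgb2, Itgb5 and Itgb7, which encode beta subunits, and Itgal, Itgax, Itga4, Itga5, Itga6 and Itgav, which encode alpha subunits. They were chosen by gene symbol, from probe sets that the platform's table assigns to 1 gene, and all 10 were found among 22180 named genes. RNA came from RAW264.7 cells, an established mouse macrophage line, in a culture labelled HuR-deficient and a wildtype culture, with 1 array each. HuR is the product of Elavl1 and binds AU-rich stretches of many mRNAs, which it is known to stabilise. Poly(I:C) of high molecular weight, a double-stranded RNA made by synthesis, was delivered to each culture by lipid transfection for 8 hours at a stated 1 mg/ml. The sources used here do not say how the deficient line was made or whether it is 1 clone, and no culture without poly(I:C) was analysed here.

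Each integrin is a pair of an alpha and a beta subunit, and the pair decides what the receptor holds on to. Beta-2 pairs (with the alpha-L, alpha-M or alpha-X subunit) occur on leukocytes and bind ICAM proteins, complement fragments and fibrinogen. Alpha-4 pairs bind VCAM-1, fibronectin and, with beta-7, the gut addressin MAdCAM-1, while alpha-5, alpha-6 and alpha-V pairs bind fibronectin, laminin and vitronectin. Macrophages use them to attach to matrix and vessel wall, to migrate and to take up opsonised particles.

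All values are log2 signals made by the authors with RMA, which corrects the background, brings the arrays to the same distribution and summarises the probes of each set, and a difference is the array labelled HuR-deficient minus the wildtype array, so that a difference of 1 is 2-fold. With 1 array per group there is no spread between replicates, no test was possible and no difference below can be set against biological or technical error. In its place each difference is given with the robust SD of the differences over the 500 genes of most similar mean signal, which measures how far genes of that signal differ and not how far replicates differ. The signal floor is 4.38, the median of all named values, and a gene passed when the higher of its values reached it. The members were chosen for these same values and differences, so they are a description. Over all 41345 probe sets, Pearson's r between the arrays was 0.970, a description across features that share both arrays. Elavl1 had a signal of 7.75 on the array labelled HuR-deficient and 7.68 on the wildtype array, so its signal did not separate the arrays. The sources used here do not say where its probe set lies relative to the disruption, so the genotype label could not be checked. Of 10 macrophage markers, 9 passed the floor. The medians over all 10 were 8.26 on the array labelled HuR-deficient and 8.14 on the wildtype array. Adgre1, an adhesion receptor gene of macrophages, was the marker past 2-fold (6.51 against 4.94 in wildtype, difference 1.57). Of 35 measured markers of other cell types 15 passed the floor, and none of these reached 2-fold. The medians over all 35 were 4.17 and 4.13 in the same order, below the floor. The list median farthest from 0 was -0.47, over 9 fibroblast, epithelial and endothelial genes with signals of 3.11 to 4.92 on the array labelled HuR-deficient and 3.64 to 5.39 on the wildtype array, and its part in the results was not tested.

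In the array labelled HuR-deficient the integrin subunits differed from wildtype in both directions. Itgb7 was 2.04-fold lower, Itgb5 was 1.66-fold higher and Itga4 was 1.52-fold higher, Itgb2 was 1.48-fold lower, and the fibronectin receptor genes Itga5 and Itgb1 differed by less than 1.1-fold. Of the 10 genes 3 lay above 0, 6 below and 1 at 0, with a median difference of -0.04, against a median of 0.00 over all named genes. Of the 8 that passed the floor, 1 reached 2-fold, downward. Over all 11905 genes that passed, 1.99% reached 2-fold, 0.882% upward and 1.11% downward. At 1.5-fold 3 of the 8 were counted, Itgb5 and Itga4 upward and Itgb7 downward, where 10.8% of all passing genes were counted, 5.44% upward and 5.32% downward. These counts describe the values by which the genes were chosen. In bulk RNA, fewer cells that express a gene and less RNA per cell cannot be told apart.

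**Figure D1:**
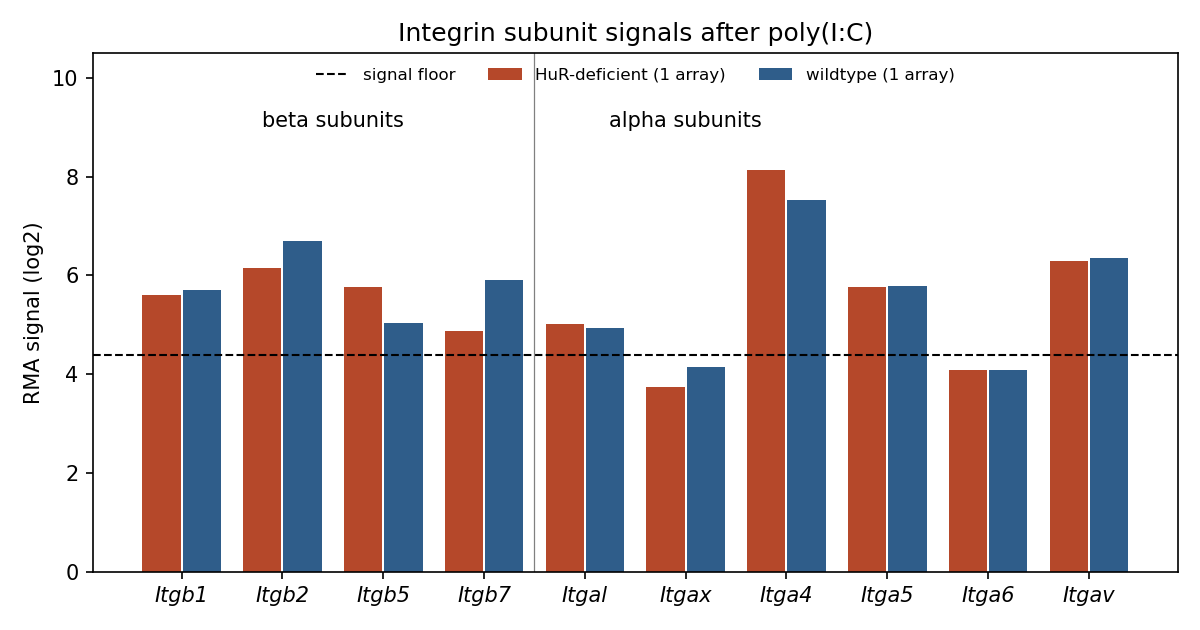
Log2 RMA signal of each of the 10 integrin subunit genes, with 1 bar per array (HuR-deficient by its label, then wildtype). The dashed line is the signal floor of 4.38. In the array labelled HuR-deficient Itgb7 and Itgb2 are lower and Itgb5 and Itga4 higher. Itgax and Itga6 lie below the floor on both arrays.

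The genes with the largest differences were Itgb7, Itgb5 and Itga4, and their promoters are shown so that the regulatory sequence of these genes can be set beside their values. RefSeq promoter sequences (GRCm38.p6, 250 bases before to 50 after the start) were found for 7 of the 10 genes and not for Itgb2, Itgal and Itga6. Capitals mark GAGGAA, a core of sites for PU.1 and other ETS factors of myeloid cells, and GGGCGG, the Sp1 box, each on either strand. The sequences lie at chr15:102231886-102232185 on the minus strand for Itgb7, chr16:33829415-33829714 on the plus strand for Itgb5 and chr2:79255176-79255475 on the plus strand for Itga4.
Itgb7: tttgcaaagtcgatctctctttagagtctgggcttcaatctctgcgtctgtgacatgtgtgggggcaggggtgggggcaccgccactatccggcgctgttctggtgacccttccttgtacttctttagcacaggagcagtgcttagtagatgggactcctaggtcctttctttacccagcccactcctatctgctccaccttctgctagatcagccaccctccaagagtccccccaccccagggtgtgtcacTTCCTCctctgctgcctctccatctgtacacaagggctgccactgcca
Itgb5: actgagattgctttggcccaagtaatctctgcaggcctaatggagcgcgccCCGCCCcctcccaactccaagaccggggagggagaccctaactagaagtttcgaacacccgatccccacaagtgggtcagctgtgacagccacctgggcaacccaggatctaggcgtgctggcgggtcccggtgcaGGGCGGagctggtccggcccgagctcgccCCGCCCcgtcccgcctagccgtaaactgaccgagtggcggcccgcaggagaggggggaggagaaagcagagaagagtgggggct
Itga4: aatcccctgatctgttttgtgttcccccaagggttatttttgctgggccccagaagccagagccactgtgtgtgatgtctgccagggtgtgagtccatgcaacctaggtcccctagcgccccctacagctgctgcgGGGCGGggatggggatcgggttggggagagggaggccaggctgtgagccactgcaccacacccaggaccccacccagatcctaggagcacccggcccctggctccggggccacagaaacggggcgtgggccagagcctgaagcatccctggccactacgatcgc

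The promoters shown differed in which of these letters they held. Whether the letters go with the direction of a difference was not tested. The Itgb7 promoter had 1 match to GAGGAA and none to GGGCGG. That match was read on the opposite strand as TTCCTC at bases 253 to 258, which lie after the start. The Itgb5 promoter had 3 matches to GGGCGG and none to GAGGAA, and the Itga4 promoter had 1 match to GGGCGG, at bases 137 to 142, and none to GAGGAA. Over the 7 promoters, 4 held GAGGAA (Itgav, Itgb1, Itgb7 and Itga5) and 5 held GGGCGG (Itga4, Itgav, Itgb1, Itga5 and Itgb5). Itgav, Itgb1 and Itga5, whose differences were smaller than the robust SD, thus held both. Among all 32851 promoter sequences of the same length, 28.3% held GAGGAA and 35.7% held GGGCGG. The TATA box letters TATAAA were found on either strand in 13.6% of all promoters and in none of the 7. No match overlapped another. CpG pairs numbered 5 in the Itgb7 promoter, 20 in that of Itgb5 and 10 in that of Itga4, and 5 for Itgax, 13 for Itga5, 24 for Itgav and 27 for Itgb1, where the median over all promoters was 7. The arrays measure mRNA, and no binding or promoter activity was measured.

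Among the beta subunits, Itgb7 had the largest difference. It encodes beta-7, which joins alpha-4 to bind MAdCAM-1 and alpha-E to bind E-cadherin. Its signal was 4.87 on the array labelled HuR-deficient and 5.90 on the wildtype array, both above the floor, a difference of -1.03 where the robust SD of genes of like signal was 0.320. Of the genes that passed, 1.80% had a larger difference in either direction. The difference lies just past the 2-fold threshold, and the next largest member in size, Itgb5, lies inside it. Itgb5 encodes beta-5, which joins alpha-V in a vitronectin receptor that phagocytes also use to take up dying cells. Its signal was 5.76 on the array labelled HuR-deficient and 5.03 on the wildtype array, a difference of 0.73 with a robust SD of 0.321. A larger difference was seen in 5.69% of the genes that passed.

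Itgb2 encodes CD18, the beta subunit shared by the leukocyte integrins LFA-1, Mac-1 and CR4. Its signal was 6.14 on the array labelled HuR-deficient and 6.70 on the wildtype array, a difference of -0.56 with a robust SD of 0.332, and 12.0% of the genes that passed differed by more. Itgb1 encodes beta-1, the common partner of the fibronectin, laminin and VCAM-1 receptors. Its signals of 5.61 on the array labelled HuR-deficient and 5.71 on the wildtype array differed by -0.10, less than the robust SD of 0.333. The 4 beta subunits thus covered the whole range of the members, from -1.03 to 0.73, with 3 of them below 0.

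Among the alpha subunits, Itga4 had the largest difference. It encodes alpha-4 (CD49d), which joins beta-1 in VLA-4 or beta-7. Its signal was 8.13 on the array labelled HuR-deficient and 7.52 on the wildtype array, a difference of 0.61 with a robust SD of 0.306, and 9.75% of the genes that passed differed by more. Itgal encodes alpha-L (CD11a), the LFA-1 subunit that binds ICAM proteins. Its signal was 5.02 on the array labelled HuR-deficient and 4.93 on the wildtype array, a difference of 0.10 that was smaller than the robust SD of 0.321. Itgax encodes alpha-X (CD11c), a complement receptor subunit that is also used as a dendritic cell marker. Its signals of 3.75 on the array labelled HuR-deficient and 4.14 on the wildtype array were both below the floor, so its difference of -0.39 was not shown to come from signal above background.

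The alpha-5, alpha-6 and alpha-V subunit genes gave values of unequal weight. Itga5, which encodes the fibronectin receptor subunit alpha-5, had 5.76 on the array labelled HuR-deficient and 5.78 on the wildtype array, a difference of -0.03, and 92.7% of the genes that passed differed by more. Itga6, which encodes the laminin receptor subunit alpha-6, had the same deposited value of 4.09 on both arrays and lay below the floor. Such equal values occurred in 1788 probe sets (4.32%), whose median was 3.40, so the 0 for Itga6 is no measure of how close the arrays were. Itgav, which encodes the vitronectin receptor subunit alpha-V, was the member with 2 probe sets, and they disagreed. The brighter one, used here, had 6.29 on the array labelled HuR-deficient and 6.35 on the wildtype array, a difference of -0.06. The dimmer one had 4.98 on the array labelled HuR-deficient and 4.51 on the wildtype array, a difference of 0.47, and the mean of both differed by 0.20. The sign of the Itgav difference therefore depended on the probe set. Which strand the dimmer one reads was not tested. Its 20 nearest named probe sets with a known strand, in the platform's numbering, belonged to minus-strand genes, and the Itgav promoter lies on the plus strand.

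**Figure D2:**
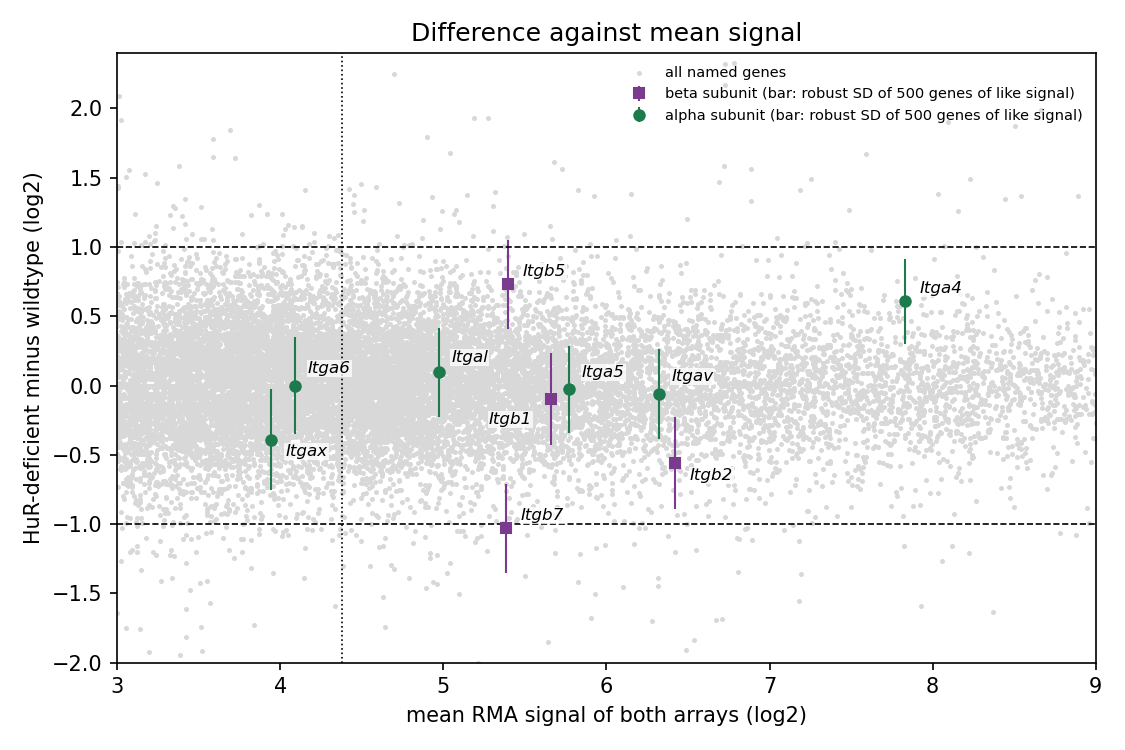
Difference (HuR-deficient minus wildtype, log2) against mean log2 RMA signal for all named genes in the drawn range (grey) and the 10 integrin subunits, with bars of 1 robust SD of the 500 genes nearest in signal. The dotted line is the signal floor of 4.38 and the dashed lines are 2-fold. Itgb7 lies just past the lower 2-fold line, Itgb5 and Itga4 lie above most genes of their signal, and Itgb1, Itga5, Itgav and Itgal lie near 0.

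Set side by side, the subunits of 8 known heterodimers differed in the same direction for 3 pairs and in opposite directions for 4, and in the last pair Itga6 was at 0. These signs carry little weight, because Itgal, Itgb1, Itga5 and Itgav differed by less than their robust SD, and Itgax and Itga6 lay below the floor. Only in alpha4-beta7 did both subunits pass the floor and differ by more than the robust SD. With both Itgav probe sets averaged, the subunits of alphaV-beta1 differed in opposite directions and those of alphaV-beta5 in the same direction. Whether the dimmer Itgav probe set reads the strand of Itgav was not tested. Levels of different probe sets cannot be compared, so only differences between the arrays are given, and the pairs share subunits. The widest gap was that of alpha4-beta7, where Itga4 differed by 0.61 and Itgb7 by -1.03, a gap of 1.64. In alpha4-beta1 (VLA-4) Itga4 stood beside Itgb1 at -0.10, a gap of 0.71. In the vitronectin receptor alphaV-beta5, Itgav at -0.06 stood beside Itgb5 at 0.73, a gap of -0.79 that was -0.53 when both Itgav probe sets were averaged. In alphaL-beta2 (LFA-1), Itgal at 0.10 stood beside Itgb2 at -0.56, a gap of 0.66. In alphaX-beta2 both subunits were lower, with a gap of 0.17. In the fibronectin receptor alpha5-beta1 the gap was 0.07. The surface amount of a receptor was not measured.

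**Figure D3:**
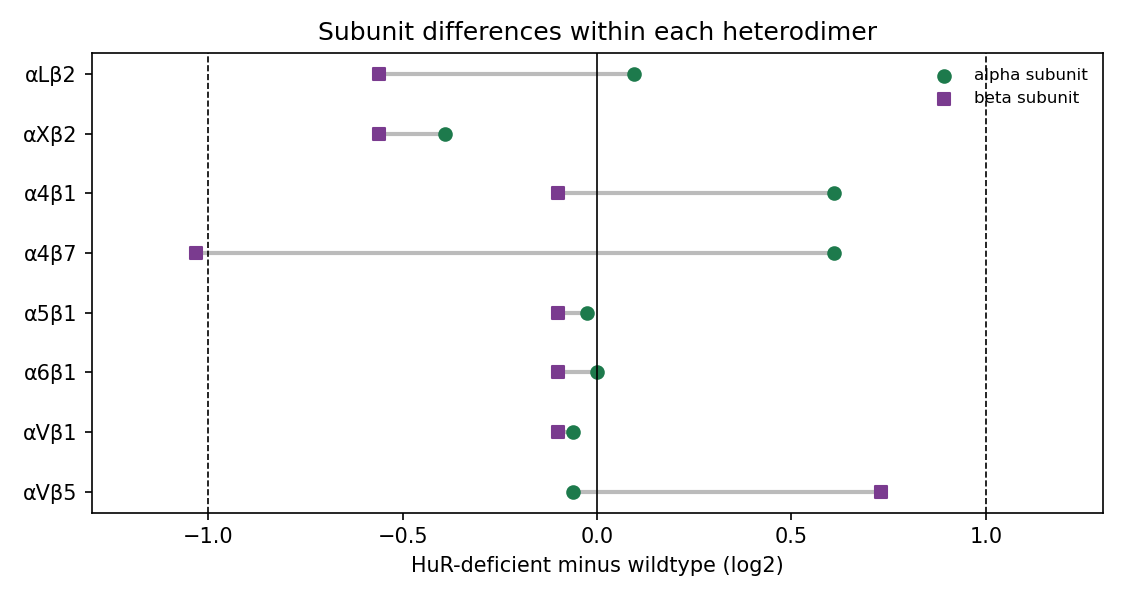
Difference (HuR-deficient minus wildtype, log2) of the alpha subunit (circle) and the beta subunit (square) of 8 integrin heterodimers, joined by a line, with dashed lines at 2-fold. The line is longest for α4β7, where the subunits lie on opposite sides of 0, and short for the beta-1 pairs other than α4β1.

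The rest of the integrin family gave weak signals on these arrays. Of 16 other measured subunits 13 lay below the floor on both arrays, among them Itgb3 and Itgad, and the 3 that passed stayed within 2-fold. Itgam, which encodes alpha-M (CD11b) of the Mac-1 receptor, had 4.53 on the array labelled HuR-deficient and 4.86 on the wildtype array, a difference of -0.33. Itga7, a laminin receptor subunit, differed by -0.30 and Itgb4, another laminin receptor subunit, by 0.09. Itgb2, Itgam and Itgax, which encode the subunits of the complement receptors Mac-1 and CR4, thus all had negative differences. That of Itgam was close in size to its robust SD of 0.312. Itgal differed by 0.10, less than its robust SD of 0.321, and Itgad, below the floor, by -0.02. In the RefSeq gene table, Itgam, Itgax and Itgad are adjacent on chromosome 7, and their sequences are related. Whether they share probes was not tested, and Itgax lay below the floor.

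Ligands and counter-receptors of integrins were measured for 36 of 39 listed genes, of which 17 passed the floor. Of these, 1 reached 2-fold upward and 1 downward, and the median over all 36 was 0.18. Tnc, which encodes the matrix protein tenascin-C, had 6.49 on the array labelled HuR-deficient and 4.87 on the wildtype array, a 3.06-fold difference of 1.61. Jam2, which encodes a junctional adhesion molecule that binds alpha-4 beta-1, had 5.09 on the array labelled HuR-deficient and 6.11 on the wildtype array, a 2.03-fold difference of -1.02. Among the genes that passed the floor and stayed within 2-fold, Emilin1 (0.83), Icam4 (0.80) and Madcam1 (0.63) lay highest. Madcam1 encodes the counter-receptor of the alpha-4 beta-7 pair. The laminin genes Lamb1 (-0.31), Lamb2 (-0.24) and Lamc1 (-0.17) lay lowest. Emilin1 passed only on the array labelled HuR-deficient (4.56, against 3.74 in wildtype), and Lamb1 only on the wildtype array (4.52, against 4.21). The differences of Emilin1 and Lamb1 thus each include a value below the floor. Among genes named after their values were seen, Icam1, which LFA-1 binds, differed by 0.36 (6.86 against 6.49 in wildtype), while Vcam1, which VLA-4 binds, and Fn1, which encodes fibronectin, lay below the floor on both arrays.

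The machinery that switches integrins on and links them to actin stayed within 2-fold. Of 37 measured adaptor and kinase genes 31 passed the floor, none reached 2-fold in either direction, and the median was 0.07. Tln1, which encodes talin, and Fermt3, which encodes kindlin-3, the activators that bind beta-subunit tails in leukocytes, differed by -0.07 and 0.23; they are named for this role and after their values were seen. Among those that passed, the largest positive differences were those of Zyx, which encodes the focal adhesion protein zyxin (0.69), the adaptor gene Fyb (0.65) and the kinase gene Src (0.48). The largest negative ones were those of the kinase gene Fgr (-0.58), the alpha-actinin gene Actn1 (-0.57) and the parvin gene Parvb (-0.54).

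Of 26 membrane partners and traffic genes 23 passed the floor, with 1 past 2-fold downward, none upward and a median of -0.07. The lower one was Cd9, which encodes a tetraspanin that associates with integrins in the membrane. Its brighter probe set had 9.11 on the array labelled HuR-deficient and 10.26 on the wildtype array, a 2.22-fold difference of -1.15. Its dimmer probe set had 5.23 and 5.14 in the same order, a difference of 0.09, and the mean of both differed by -0.53, within 2-fold. Among the other genes that passed the floor, Dab2 (-0.44) and Rab21 (-0.25), which take part in integrin endocytosis, and the tetraspanin gene Cd151 (-0.35) lay lowest. The tetraspanin gene Cd37 (0.40), Acap1 (0.38), which acts in integrin recycling, and the urokinase receptor gene Plaur (0.26) lay highest among those that passed. For each of these lists the share of passing genes at 2-fold stands beside the 1.99% over all genes given above, and no list was tested.

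**Figure D4:**
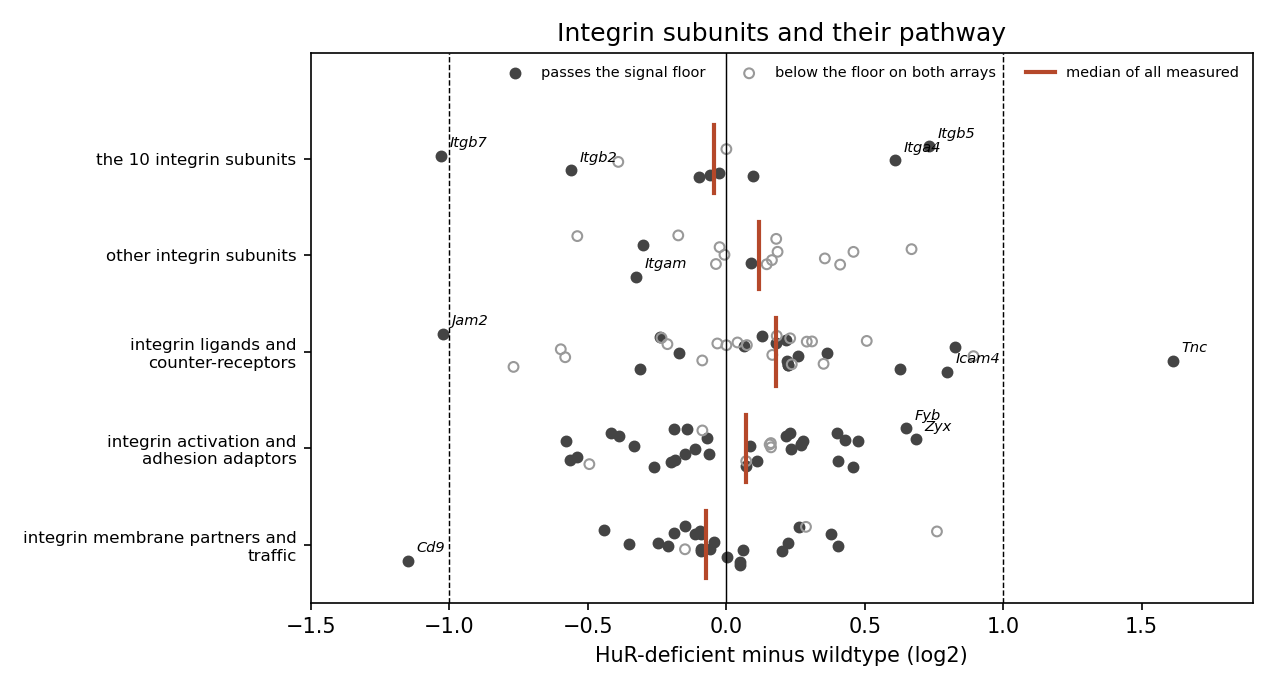
Difference (HuR-deficient minus wildtype, log2) of each measured gene in the 10 integrin subunits and 4 lists of the same pathway, with filled points for genes that pass the signal floor, open points for genes below it on both arrays and a line at the median of all measured genes. Dashed lines are 2-fold. Itgb7, Jam2 and Cd9 lie past the lower line and Tnc past the upper line, and no adaptor gene passes either.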

How the data were processed

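Messenger RNA was measured on 1 Affymetrix array per culture, HuR-deficient and wildtype. The deposited table holds log2 values per probe set, made by the authors with RMA, per the submitters' processing notes; its version, the annotation and the build are not given there. Values between 0.434 and 13.77 were taken to be on a log2 scale. RMA forces the arrays to 1 distribution, so a change in total mRNA cannot be seen, and it compresses weak signals. No detection calls were used, so a low signal is not an absent transcript. Precision is limited by the number of arrays.

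Of 41345 probe sets, 23521 had 1 symbol and were used; of several per gene, the one with the highest mean was taken. Of the listed pathway symbols, Cyr61 was matched through a synonym (Ccn1); those without a 1-symbol probe set were not used here. Differences and counts at 2-fold were computed without a test. Members and lists were chosen with earlier results of these data known. The genes named were the members, list genes at 2-fold, up to 3 further per direction and list, and macrophage markers at 2-fold; any other is marked in the text. Counting, local spread and trend removal were tested on simulated data. Alternatives were median centring, a further quantile normalisation, a loess trend (span 0.3), averaged probe sets, other filters and other thresholds. The software was matplotlib 3.10.9, statsmodels 0.14.6, pandas 2.3.3 and numpy 2.4.6 under Python 3.11.15.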

Additional observations from a re-analysis of the deposited data

Results flagged for a closer look

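A probe set that the platform's table assigns to both Cerkl and Itga4, and that no comparison uses, gave a higher signal in the array labelled HuR-deficient, at 5.95 against 5.53 on the wildtype array. Its difference of 0.43 exceeded the robust SD of genes of like signal, 0.311, which is what drew attention to it. The Itga4 probe set differed by 0.61. Which of the genes the shared probe set reads was not tested. Its 20 nearest named probe sets with a known strand, in the platform's numbering, all belonged to minus-strand genes. The Itga4 promoter lies on the plus strand.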

How the results depend on the processing

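All 10 integrin subunits kept a difference within 1 robust SD of the value given under the 4 scalings and probe-set rules tried. Median centring could change no value, because the median difference over all named genes was 0.00. Averaging probe sets could change only Itgav among the members. The sign of Itgav turned with averaged probe sets (0.20), and Itga6, at 0.00, lay as low as -0.04. Itgb7 stayed at -1.03, Itgb5 ranged from 0.73 to 0.74, Itga4 from 0.61 to 0.62 and Itgb2 from -0.56 to -0.55. The count of members past the threshold was 3 at 1.5-fold (Itgb5 and Itga4 higher, Itgb7 lower; 10.8% of all genes that passed did so) and 0 at 3-fold. At 1.5-fold 5 of 17 ligands and 2 of 31 adaptors were counted, beside the same 10.8%. At 3-fold 1 of 17 ligands and 0 of 23 membrane partners were counted, beside 0.462% of all genes that passed the floor. With probe sets averaged, 0 of 23 membrane partners reached 2-fold, because the probe sets of Cd9 disagree, and 1.97% of all passing genes did. The median of the other integrin subunits was 0.12 over 16 and -0.30 over the 3 that passed the floor. The other 62 of 70 values for lists and counts stayed within 1.5 times (counts) or 0.1 (medians). These include the values under median centring, which could not differ. No paired analysis was possible because the labels give no replicate numbers and each group has 1 array.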

Other observations

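The dimmer Itgav probe set and the probe set shared by Cerkl and Itga4 had something in common in the platform's numbering. For each, the 20 nearest named probe sets with a known strand all belonged to genes on the minus strand of chromosome 2, whereas the Itgav and Itga4 promoters lie on the plus strand. For the brighter Itgav probe set 13 of the 20 nearest were on the plus strand, and for the Itga4 probe set 19 of 20 were. Which strand each probe set reads was not tested.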
